A study of Mus musculus with 11 samples.

Results

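Transcripts of hemoglobin and erythroid genes were followed through whole neonatal mouse skin in which regulatory T cells (Tregs) had been depleted at different times. The set holds 6 genes, chosen by name: the adult alpha globins Hba-a1 and Hba-a2, the adult beta globins Hbb-bs and Hbb-bt, Alas2, the red cell enzyme that starts heme synthesis, and Slc4a1, which encodes the anion exchanger band 3. All 6 were among the 49315 genes counted, and all 6 were among the 18375 genes that passed the filter on low counts. In ΔTreg skin the transcripts of Hba-a1, Hba-a2 and Hbb-bt were lower than in control skin, at 0.54, 0.50 and 0.58 of the control level. They passed an adjusted p of 0.05 in edgeR, where 9.39% of all genes tested were called lower. Hbb-bs and Alas2 did not pass, and none of the 6 was called without control mouse 1. Slc4a1 went the other way from these globins, and was higher in both groups of mice harvested at postnatal day 13 (P13) after late or full depletion than in control skin. Over the 11 libraries its Pearson's r with the other 5 genes was between -0.45 and -0.16. Which cells carry its transcript was not tested.

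The mice were Foxp3-DTR animals on a C57BL/6J background, in which the Foxp3 promoter drives the diphtheria toxin (DT) receptor, so that DT kills Foxp3-expressing Tregs wherever they are. Control mice received PBS (n = 2), and the labels do not give the day on which their skin was taken. ΔETreg mice received DT at 30 ng per g on P6 and P8 and were harvested at P9 (n = 3). ΔLTreg mice received DT on P10 and P12 and were harvested at P13 (n = 3), and ΔTreg mice received DT on P6, P8, P10 and P12 and were also harvested at P13 (n = 3). Each library came from the skin of 1 mouse, and mice are numbered here in the order of their sample records. Age and the time of depletion cannot be told apart between ΔETreg mice and the other depleted groups. The study describes its comparisons with control as age-matched, but the day of each control library is not given in the sources used here, so that age and depletion cannot be told apart in the comparisons with control either.

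Hemoglobin is a tetramer of alpha and beta globin chains, each holding a heme. Red cell precursors in bone marrow and neonatal spleen make globin and heme at the same time, under the transcription factors GATA1 and KLF1. Young red cells leave the marrow as reticulocytes, which have lost the nucleus but still carry globin mRNA, and mature red cells carry little RNA. Skin makes no red cells of its own in the postnatal animal, so hemoglobin mRNA in a skin biopsy is usually read as blood held in its vessels. In bulk tissue, fewer cells of a type and less RNA per cell cannot be told apart.

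Total counts ranged from 23377571 to 34159435 per library. The 8 skin epithelium markers, among them Krt5 and Krt14, were abundant in all 11 libraries, with a summed level of 10978.8 to 15142.1 CPM (counts scaled to a common library size, with TMM factors). Mice of the same group differed beyond counting noise: for each pair of them the median chi-square over genes was 0.988 to 3.24, and counting alone would give 0.455. The log2 fold changes of Foxp3, which marks the depleted cells, were -0.49 after early, -0.23 after late and -0.30 after full depletion, relative to control skin, and none passed adjustment in edgeR. By flow cytometry, which measures cells and not RNA, the study reported efficient Treg depletion in skin at P9 (ΔETreg) and P13 (ΔLTreg).

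The genes lie in 4 places of the mouse genome (GRCm38). Hba-a1 (chromosome 11, 32283511 to 32284465, plus strand) and Hba-a2 (chromosome 11, 32296489 to 32297298, plus strand) are neighbours. Slc4a1 (chromosome 11, 102348824 to 102366203, minus strand) lies further along the same chromosome. Hbb-bs (chromosome 7, 103826534 to 103828096, minus strand) and Hbb-bt (chromosome 7, 103812524 to 103813996, minus strand) form the other neighbouring pair. Alas2 (chromosome X, 150547375 to 150570638, plus strand) shares 372 exonic bases with Apex2 and Mir3620, so reads there may be unassigned or, without strand, belong to a neighbour.

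The globin copies are nearly the same gene. Hba-a1 and Hba-a2 were identical at 425 of 426 coding bases, and Hbb-bs and Hbb-bt at 440 of 441. Of all 150-base windows in its longest transcript, 48.4% of Hba-a1, 65.7% of Hba-a2, 58.7% of Hbb-bs and 50.7% of Hbb-bt also occur in the other copy. Only reads that mapped to 1 place were counted, so the split of counts within each pair is uncertain. The sum of each pair does not depend on that split among the reads counted, while reads that matched both copies were not counted.

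Because the hemoglobin genes and Alas2 varied together across the libraries, the 120 bases before the RefSeq start site of each are printed 5′ to 3′ (RefSeq, GRCm38.p6, which held 5 of the 6 genes). Capitals mark 4 motifs, each searched on both strands, where neighbouring matches may overlap or touch. They are the letters GATAA of a GATA site, the letters CACCC of the box that KLF1 binds, the CCAAT box, and the letters TATAA of a TATA box. The coordinates are chr11:32283552-32283671 for Hba-a1, chr11:32296372-32296491 for Hba-a2, chr7:103827929-103828048 for Hbb-bs, chr7:103813924-103814043 for Hbb-bt and chrX:150547297-150547416 for Alas2.
Hba-a1: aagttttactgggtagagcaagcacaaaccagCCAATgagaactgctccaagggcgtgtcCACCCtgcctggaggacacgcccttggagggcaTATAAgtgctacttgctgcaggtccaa
Hba-a2: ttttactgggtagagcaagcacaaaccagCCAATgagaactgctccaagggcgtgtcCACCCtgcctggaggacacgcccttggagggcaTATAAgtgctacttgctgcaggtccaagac
Hbb-bs: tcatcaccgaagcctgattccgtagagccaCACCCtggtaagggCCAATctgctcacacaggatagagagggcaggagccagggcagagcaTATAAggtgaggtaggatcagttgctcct
Hbb-bt: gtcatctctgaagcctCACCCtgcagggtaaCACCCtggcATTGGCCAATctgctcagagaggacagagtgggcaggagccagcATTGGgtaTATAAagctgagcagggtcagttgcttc
Alas2: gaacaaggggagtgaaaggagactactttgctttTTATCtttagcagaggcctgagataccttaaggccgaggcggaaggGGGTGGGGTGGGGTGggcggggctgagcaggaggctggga

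All 4 globin windows held the KLF1 box, the CCAAT box and the TATA box. The Alas2 window held the GATA letters once, on the minus strand, and the KLF1 box 3 times. Among the 32851 promoter windows of the same length, 10.5% held the GATA letters, 31.7% the KLF1 box, 21.3% the CCAAT box and 11.8% the TATA box. The longest identical run was 117 bases between the Hba windows and 14 bases between the Hbb windows. These matches are descriptions of the sequence, not measured binding.

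Per kilobase of exon, the levels over all 11 libraries ran from Hbb-bs at 119 ± 25.1 CPM per kilobase (SD, n = 11), through Hba-a1 at 76.8 ± 22.2 and Hba-a2 at 28.8 ± 8.79, to Hbb-bt at 22.0 ± 5.90, Slc4a1 at 9.56 ± 1.90 and Alas2 at 4.74 ± 0.746. The neighbours Hba-a2 and Hbb-bt differed by less than the SD of Hba-a2, and each other step in this order exceeded both SDs. These levels rest on uniquely mapped reads, so the order of the copies within each globin pair is uncertain as an order of transcripts. The exchanger of the red cell membrane was therefore listed below every hemoglobin gene and above the heme enzyme. As a share of all counts, the 4 hemoglobin genes made up 0.0242 ± 0.000770% (SD, n = 2) in control skin. The share was 0.0146 ± 0.00187% (n = 3) in ΔTreg skin, and it lay between these at 0.0193 ± 0.00548% (n = 3) for ΔETreg and 0.0191 ± 0.00459% (n = 3) for ΔLTreg mice.

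Hba-a1, the alpha globin copy with more counts, had 86.6 and 83.8 CPM in the 2 control libraries. It had 80.3, 73.2 and 44.0 CPM in ΔETreg mice 1 to 3, and 60.7, 76.0 and 44.0 CPM in ΔLTreg mice 1 to 3. In ΔTreg skin it had 46.5, 51.5 and 39.2 CPM. Every depleted mouse was below both controls, and ΔETreg mouse 3 and ΔLTreg mouse 3 were at the level of the ΔTreg mice.

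Hba-a2, its neighbour, had 27.7 and 25.2 CPM in control, 23.8, 24.0 and 14.0 CPM in ΔETreg, and 19.3, 24.3 and 14.0 CPM in ΔLTreg skin. In ΔTreg skin it had 13.7, 13.6 and 12.1 CPM. The ΔTreg mice lay below every other library, with a spread of only 1.14-fold among them against 1.71-fold among ΔETreg and 1.73-fold among ΔLTreg mice.

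Hbb-bs, the beta globin copy with more counts, had 117.6 and 107.9 CPM in control, 100.6, 95.02 and 61.95 CPM in ΔETreg, and 98.2, 116.7 and 72.1 CPM in ΔLTreg skin. In ΔTreg skin it had 77.7, 88.0 and 68.2 CPM. ΔLTreg mouse 2 lay within the control range, and ΔETreg mouse 3 was the lowest of all 11 libraries. Hbb-bt, the other beta globin copy, had 20.1 and 19.2 CPM in control, 19.7, 19.4 and 11.7 CPM in ΔETreg, and 15.5, 19.0 and 11.4 CPM in ΔLTreg skin. In ΔTreg skin it had 11.5, 13.6 and 9.12 CPM, and ΔETreg mice 1 and 2 were within the control range.

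Alas2, which commits glycine and succinyl-CoA to heme in erythroid cells, had 13.13 and 12.99 CPM in control, 12.8, 11.8 and 9.30 CPM in ΔETreg, and 12.2, 13.9 and 8.77 CPM in ΔLTreg skin. In ΔTreg skin it had 10.2, 10.9 and 9.27 CPM. ΔLTreg mouse 2 was the highest library for this gene and ΔLTreg mouse 3 the lowest, so the widest spread lay inside the ΔLTreg group.

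Slc4a1, whose protein exchanges chloride for bicarbonate across the red cell membrane and anchors the membrane skeleton, had 36.9 and 42.9 CPM in control and 33.99, 36.8 and 40.9 CPM in ΔETreg skin. It had 63.6, 55.5 and 51.3 CPM in the ΔLTreg mice and 54.8, 47.5 and 49.8 CPM in the ΔTreg mice. All 6 mice harvested at P13 after DT lay above all 5 other libraries. ΔETreg mouse 3 and ΔLTreg mouse 3, which were low in the 4 hemoglobin genes and Alas2, were the highest and the lowest of their own groups for Slc4a1.

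**Figure D1:**
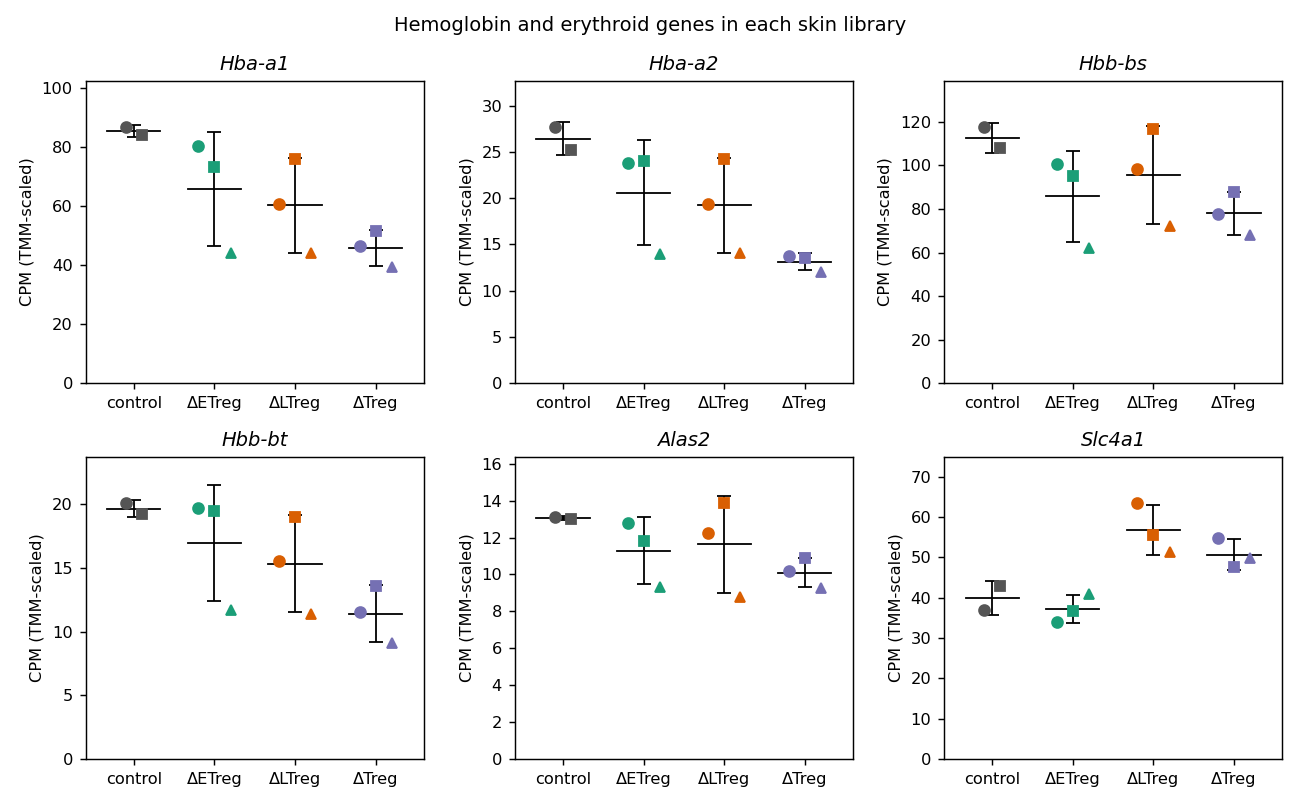
Level of each gene in CPM (TMM-scaled, axes from 0) for the 2 control, 3 ΔETreg, 3 ΔLTreg and 3 ΔTreg libraries. Points are libraries (circle, square and triangle for mice 1, 2 and 3), lines are means and bars SD; mouse 3 of ΔETreg and of ΔLTreg is low in 5 panels but not in that of Slc4a1, where the ΔLTreg and ΔTreg mice lie between 47.5 and 63.6 CPM.

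Early depletion gave no detectable change in these genes. Between ΔETreg and control skin all 6 had negative log2 fold changes, between -0.10 for Slc4a1 and -0.39 for Hbb-bs, and 0 of 6 passed an adjusted p of 0.05 in edgeR's quasi-likelihood test, where 0 also had an unadjusted p under 0.05. DESeq2 called 0 of 6 as well. Of all genes tested, 0.00544% passed in edgeR in either direction, all of them higher (0.00544%) and 0% lower. The log2 fold change of Hba-a1 was -0.37 (SE 0.245) and that of Alas2 was -0.21 (SE 0.178). ΔETreg mouse 3 lay at 44.0 CPM for Hba-a1 and the other ΔETreg mice at 73.2 and 80.3 CPM, beside 83.8 and 86.6 CPM in control.

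After late depletion, Slc4a1 was the member that rose. It was 1.42-fold higher in ΔLTreg than in control skin, with 56.8 ± 6.24 CPM (SD, n = 3) against 39.9 ± 4.26 (n = 2) and a log2 fold change of 0.51 (SE 0.110, adjusted p = 0.0278 in edgeR). This made 1 of 6 members called, where 4.55% of all genes tested passed in either direction, 1.86% higher and 2.69% lower. The 4 hemoglobin genes and Alas2 had negative log2 fold changes that did not pass, from -0.17 for Alas2 to -0.50 for Hba-a1. The call on Slc4a1 was lost without control mouse 1 (log2 fold change 0.40, adjusted p = 0.178 in edgeR), without control mouse 2 (0.62, adjusted p = 0.0518) and in edgeR on the libraries of the 2 groups alone (0.51, adjusted p = 0.135), while DESeq2 on those same libraries kept it (0.50, adjusted p = 0.0101).

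In ΔTreg against control skin 3 of the 4 hemoglobin genes fell. Hba-a2 fell to 13.1 ± 0.920 CPM (SD, n = 3) from 26.4 ± 1.76 (n = 2), a log2 fold change of -1.01 (SE 0.235, adjusted p = 0.0109 in edgeR). Hba-a1 fell from 85.2 ± 2.00 to 45.7 ± 6.23 CPM, a log2 fold change of -0.90 (SE 0.245, adjusted p = 0.0241). Hbb-bt fell from 19.7 ± 0.638 to 11.4 ± 2.23 CPM, a log2 fold change of -0.78 (SE 0.248, adjusted p = 0.0443). Both alpha globins and 1 of the beta globins thus passed the test in this fit. As summed pairs, alpha globin had a log2 fold change of -0.92 (SE 0.241, adjusted p = 0.0194 in edgeR). The summed beta pair had -0.57 (SE 0.217, adjusted p = 0.0883) and did not pass.

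Hbb-bs was at 77.9 ± 9.91 CPM in ΔTreg and 112.7 ± 6.85 in control skin, a log2 fold change of -0.53 (SE 0.213, adjusted p = 0.101 in edgeR). It passed in DESeq2 (-0.54, adjusted p = 5.06e-05), so that DESeq2 called all 4 hemoglobin genes, and in edgeR on the libraries of these 2 groups alone (-0.53, adjusted p = 0.00785). Alas2 was at 10.1 ± 0.798 against 13.1 ± 0.104 CPM, a log2 fold change of -0.37 (SE 0.178, adjusted p = 0.169). Slc4a1 rose 1.27-fold, from 39.9 ± 4.26 to 50.7 ± 3.73 CPM, a log2 fold change of 0.35 (SE 0.109, adjusted p = 0.0447). In all, 3 of 6 members were called lower and 1 higher, 4 in either direction, where DESeq2 called 5 and edgeR on the 2 groups alone 6. In edgeR on all libraries, 21.5% of all genes tested passed in this comparison, 9.39% lower and 12.1% higher. The shares under DESeq2 and under edgeR on the 2 groups alone are not given here, so those counts have no background beside them.

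The 3 ΔTreg mice did not overlap the 2 control mice for any of the 6 genes, with 5 lower and Slc4a1 higher. Over all genes tested, 25.8% were lower and 26.8% higher without overlap in this comparison. The median log2 fold change was -0.66 over the 6 members and -0.01 over all genes tested. Of 20 other settings, Hba-a2 stayed past the threshold in 19, Hba-a1 in 16, Hbb-bt in 13 and Slc4a1 in 12. Among these settings is 1 that left out 2 libraries picked for their low hemoglobin, so it is no independent check. The call on Hba-a2 was lost without control mouse 1 (adjusted p = 0.0578 in edgeR), and none of the 6 was called without that mouse. Without control mouse 2, ΔTreg mouse 1 or ΔTreg mouse 3, 1 of 6 was called, and without ΔETreg mouse 2, 2 of 6.

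Between the late and early regimens, Slc4a1 differed and the hemoglobin genes were not shown to. Slc4a1 was 1.53-fold higher in ΔLTreg than in ΔETreg skin, where it had 37.2 ± 3.46 CPM (SD, n = 3), a log2 fold change of 0.61 (SE 0.0971, adjusted p = 0.00581 in edgeR). It passed in all 20 other settings, with log2 fold changes of 0.52 to 0.74. It was the 1 member called, where 6.38% of all genes tested passed, 3.12% higher and 3.27% lower. The log2 fold changes of the other members lay between -0.15 for Hbb-bt and 0.15 for Hbb-bs, and Hbb-bs and Alas2 were positive while both alpha globins and Hbb-bt were negative.

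Against ΔETreg skin, ΔTreg skin had a log2 fold change of 0.45 for Slc4a1 (SE 0.0973, adjusted p = 0.00655 in edgeR), a 1.36-fold rise that passed in all 20 other settings. Hba-a2 fell, with 13.1 ± 0.920 CPM in ΔTreg and 20.6 ± 5.71 in ΔETreg skin, a log2 fold change of -0.66 (SE 0.215, adjusted p = 0.0483). These 2 of 6 members compare with 23.1% of all genes tested, 13.2% higher and 9.81% lower. The fall of Hba-a2 was near the threshold, and it was lost in 9 of 20 settings: without control mouse 1 or 2, ΔETreg mouse 1 or 2, ΔLTreg mouse 1 or ΔTreg mouse 1, 2 or 3 (adjusted p from 0.0540 to 0.164), and with the copies of each pair summed (adjusted p = 0.0948). Without ΔETreg mouse 3, 4 of 6 members were called, Hba-a1 and Hbb-bt among them with log2 fold changes of -0.75 and -0.78. That mouse had the lowest hemoglobin level of its group, so leaving it out is no independent check. The share of all genes called without it is not given here.

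ΔTreg and ΔLTreg mice were harvested on the same day and differ in the doses on P6 and P8. All 6 genes had negative log2 fold changes in ΔTreg against ΔLTreg skin, from -0.16 (SE 0.0960) for Slc4a1 to -0.55 (SE 0.215) for Hba-a2, and 0 of 6 passed an adjusted p of 0.05 in edgeR, with 1 at an unadjusted p under 0.05. DESeq2 called 1, Hba-a2. In edgeR on all libraries, 16.8% of all genes tested passed, 10.7% higher and 6.11% lower. The adjusted p of Hba-a2 was 0.112 in edgeR, and it was 0.0286 without ΔLTreg mouse 3 and 0.0493 without ΔETreg mouse 3, which left 1 of 6 called in each case. Both mice had the lowest hemoglobin level of their groups, so leaving either out is no independent check. The share of all genes called in those fits is not given here.

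**Figure D2:**
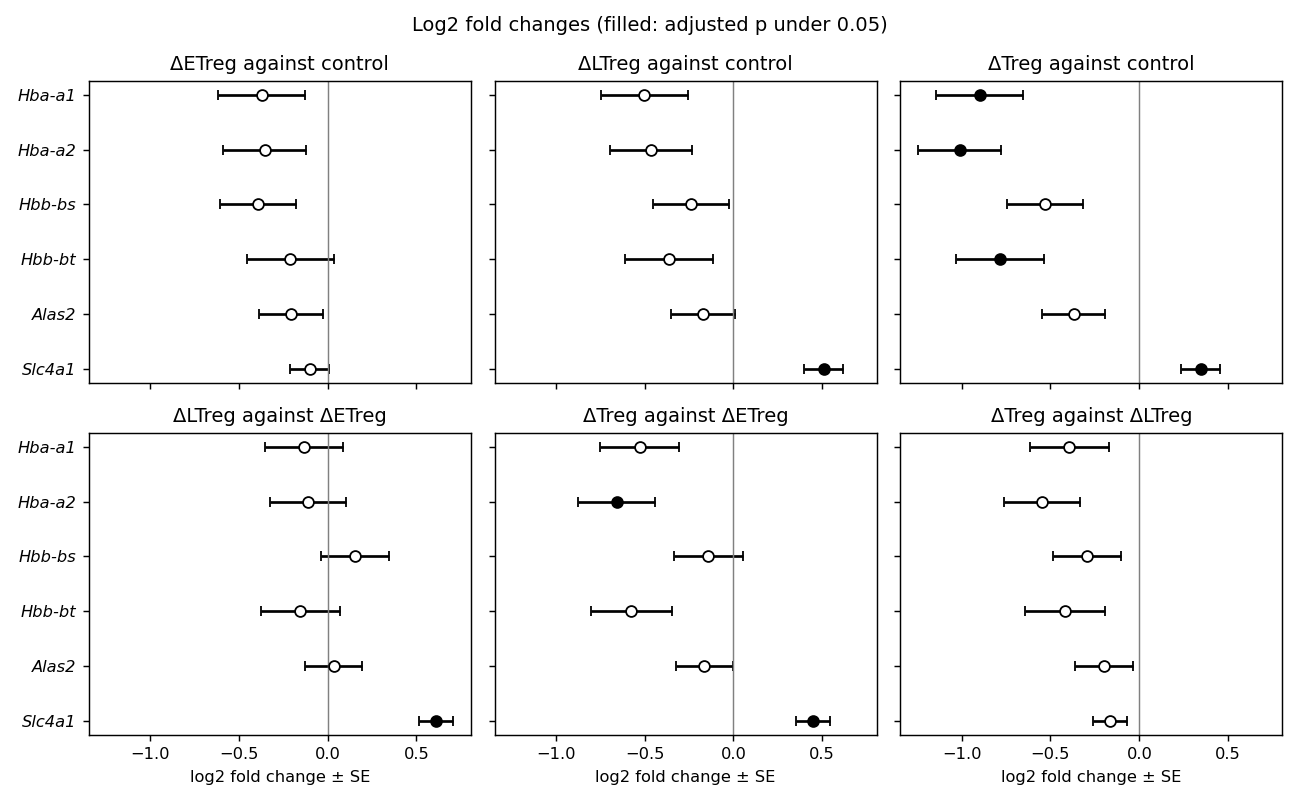
Log2 fold change of each gene in the 6 comparisons, with bars of 1 SE; filled points passed an adjusted p of 0.05 in edgeR's quasi-likelihood test and open points did not. Slc4a1 lies to the right of 0 wherever a P13 group is set against control or ΔETreg skin, and Hba-a2 in ΔTreg against control skin lies furthest to the left, at -1.01.

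ΔETreg mouse 3 and ΔLTreg mouse 3 stood apart from their groups in 5 of the 6 genes, and they were left out together after their values had been seen. Because they were picked by the measurement itself, the tests without them are given as values only. Without both, 6 of 6 members passed in ΔTreg against control, 4 of 6 in ΔTreg against ΔETreg and 5 of 6 in ΔTreg against ΔLTreg skin. The share of all genes that passed without both is not given here. The log2 fold change of Hba-a1 in ΔTreg against ΔLTreg skin was then -0.57, compared with -0.39 (SE 0.223) with all libraries. The number called stayed at 1 in ΔLTreg against control, at 1 in ΔLTreg against ΔETreg and at 0 in ΔETreg against control skin.

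Ratios between members inside 1 library do not depend on depth or scaling. Counts of alpha globin over counts of beta globin were 0.830 and 0.858 for control mice, against 0.865, 0.850 and 0.788 after early depletion. They were 0.703, 0.739 and 0.695 in the ΔLTreg mice and 0.675, 0.641 and 0.663 in the ΔTreg mice. Each of the 6 mice harvested at P13 after DT was below each of the 5 other mice, and the ΔTreg mice were below the ΔLTreg mice.

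The mean alpha to beta ratio of ΔTreg skin was 0.660 ± 0.0173 (SD, n = 3) and that of control skin 0.844 ± 0.0193 (n = 2), 1.28-fold apart. The ratio of ΔLTreg skin was 0.712 ± 0.0232 (n = 3), and that of ΔETreg skin 0.834 ± 0.0411 (n = 3). In a two-sided exact permutation test, 5 of the 6 pairs of groups reached p = 0.1, the smallest these group sizes allow, and ΔETreg against control gave p = 0.9. Over the 30 ratio tests made, the adjusted value of the smallest p was 0.231, so that none could pass 0.05.

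Within the beta pair, Hbb-bt over Hbb-bs was 0.196, 0.204 and 0.188 in the ΔETreg mice and 0.171 and 0.178 in the control mice. It was 0.158, 0.163 and 0.158 in the ΔLTreg mice and 0.149, 0.154 and 0.134 in the ΔTreg mice. The 4 groups did not overlap, with ΔETreg highest and ΔTreg lowest, and each pair of groups gave the smallest exact permutation p of 0.1. Within the alpha pair, the mean of Hba-a2 over Hba-a1 was 0.310 ± 0.0134 for control mice, 0.314 ± 0.0161 for ΔETreg mice, 0.319 ± 0.000565 for ΔLTreg mice and 0.289 ± 0.0229 for ΔTreg mice. These overlapped except for ΔTreg against ΔLTreg skin. Since the counts of near-identical copies rest on the part of each read that differs, these within-pair ratios are uncertain as ratios of transcripts.

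Alas2 over Hbb-bs was 0.112 to 0.150 over the 11 libraries, with means of 0.116 ± 0.00614 (SD, n = 2) in control, 0.134 ± 0.0142 (n = 3) after early, 0.122 ± 0.00274 (n = 3) after late and 0.130 ± 0.00630 (n = 3) after full depletion. The ΔETreg and ΔTreg mice lay above both controls, 1.15-fold and 1.12-fold higher in the mean, with a two-sided exact permutation p of 0.2 each. The mean of Slc4a1 over Hbb-bs was 0.356 ± 0.0595 in control skin, 0.462 ± 0.173 after early, 0.611 ± 0.122 after late and 0.659 ± 0.104 after full depletion, and the lowest ΔTreg mouse (0.540) was above the highest control mouse (0.398).

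**Figure D3:**
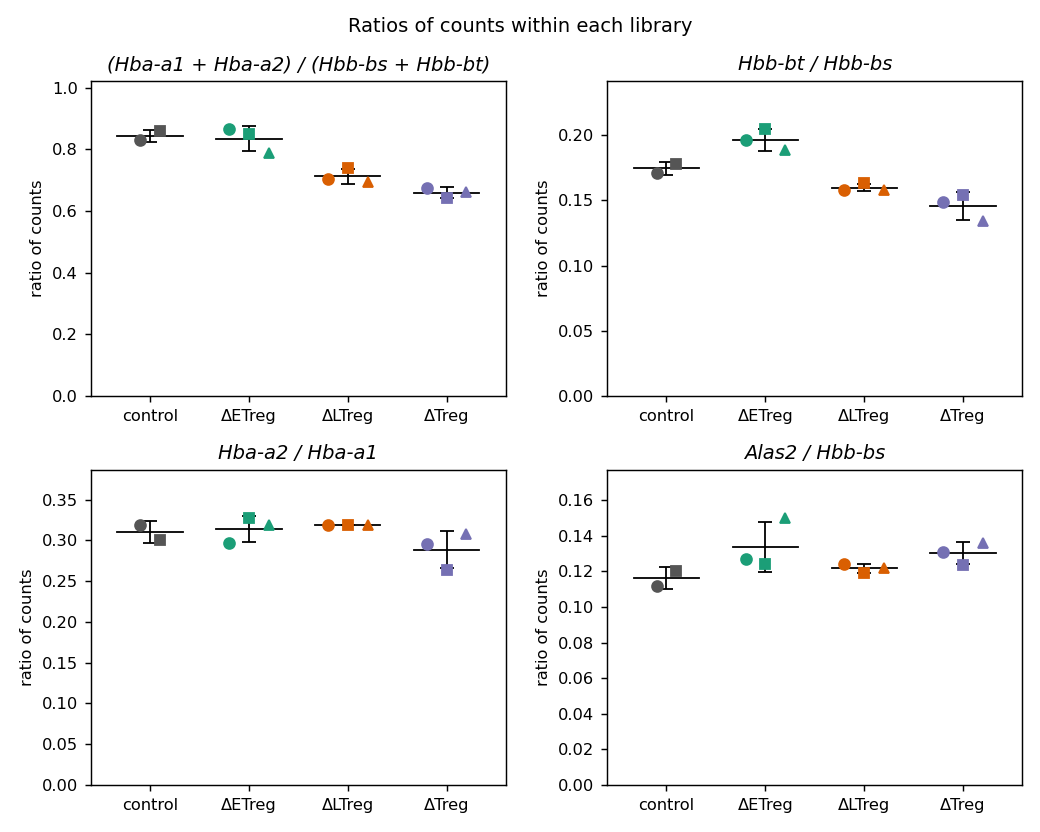
Ratios of counts within each library, in 4 panels with axes from 0; points are libraries (circle, square and triangle for mice 1, 2 and 3), lines are group means and bars SD. Alpha over beta globin counts lie between 0.788 and 0.865 in control and ΔETreg mice and between 0.641 and 0.739 in ΔLTreg and ΔTreg mice.

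Across the 11 libraries, the hemoglobin genes and Alas2 varied together. Pearson's r of log2 CPM ranged from 0.89 to 0.98 over their 10 pairs and Spearman's rho from 0.82 to 0.95, with permutation p adjusted over 15 pairs of at most 0.000945 for r and 0.00492 for rho. With the 2 libraries farthest from the median left out, r was between 0.84 and 0.99. After each group's mean was removed, so that only mice of the same group were compared, r was between 0.94 and 0.99. These relations share the depth and RNA input of each library.

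Slc4a1 did not follow the others. Its r with the other 5 members ranged from -0.45 to -0.16 and its rho from -0.57 to -0.12, with adjusted permutation p of at least 0.203 for r and 0.0954 for rho. Its r was between -0.42 and -0.06 without the 2 farthest libraries and between -0.23 and -0.03 after the group means were removed. A p that misses the threshold over 11 libraries does not show that no relation exists.

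**Figure D4:**
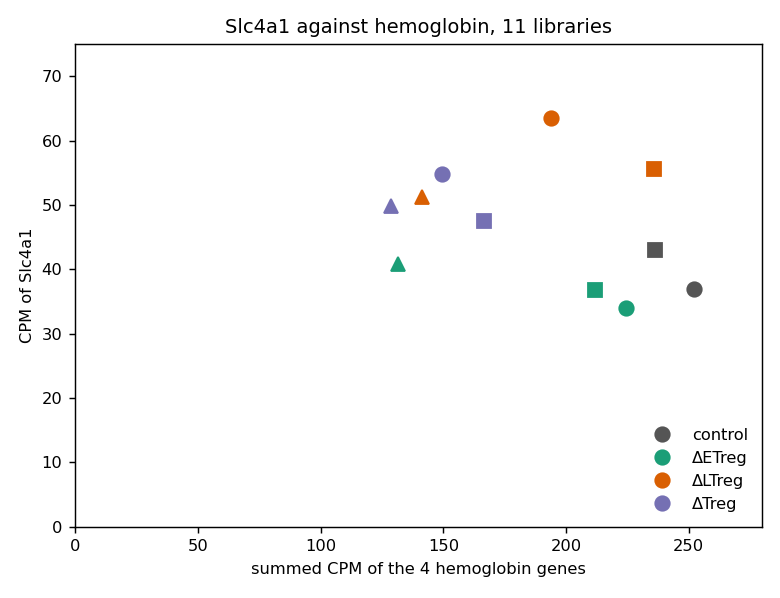
CPM of Slc4a1 (vertical axis) against the summed CPM of the 4 hemoglobin genes (horizontal axis), both axes from 0, with 1 point per library coloured by group and shaped by mouse as above. Hemoglobin spans 128.5 to 252.0 CPM, and the ΔLTreg and ΔTreg mice lie above 47 CPM of Slc4a1 at low and high hemoglobin alike.

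The genes whose levels were most like the mean standardised log2 CPM of the 6 members over the 11 libraries, among 13886 genes with a mean count of at least 50, were Dguok (r = 0.94), Abhd14a (0.93), Pdia5 (0.92), Cthrc1 (0.92), Pdxk (0.90), Acot1 (0.90), Prss36 (0.89), Zbtb14 (0.88), Dmap1 (0.88) and Yipf4 (0.88). After the group means were removed they were Zfp820 (0.95), Vwa5a (0.95), Tgoln1 (0.95), Sp140 (0.94), Atf2 (0.94), Fam124a (0.94), Mkx (0.93), Lxn (0.93), Abcc3 (0.93) and Zfp626 (0.93). None of these belongs to the erythroid lists used here, and the highest values of r were picked from 13886 genes over 11 libraries. Since Slc4a1 did not follow the other members, this mean blends unlike patterns. Genes most like the hemoglobin genes and Alas2 alone are not reported here.

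For Slc4a1 alone, a comparison added after its values were seen, the 10 most alike genes included Trpv6 (r = 0.97), Apoe (0.97), Slc45a3 (0.96), AU018091 (0.96), Cnbd2 (0.95), Atp2c2 (0.95), Cwh43 (0.95), Ctsd (0.94) and Tmem171 (0.94). Trpv6 encodes an epithelial calcium channel and ran from 33.0 to 70.0 CPM. Apoe, a lipid carrier protein, ran from 4059 to 9811 CPM, and Atp2c2, a secretory pathway calcium pump, from 160.4 to 307.3 CPM. No gene of the erythroid lists was among the 10.

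The other genes of the red cell membrane and skeleton were set beside Slc4a1. Per kilobase of exon, Slc4a1 ran from 6.95 to 12.997 CPM, with a median of 9.72 over the 11 libraries. Epb41, the skeleton protein 4.1 that many tissues make, ran from 10.8 to 13.4 with a median of 11.3, and Gypc, glycophorin C, which is also made outside red cells, from 2.62 to 3.94 CPM per kilobase. Tmod1 and Sptb had medians of 1.70 and 1.37. At the other end of the list, Rhag, the Rh-associated glycoprotein, reached at most 0.0916 CPM per kilobase, with a median of 0.0511 and 0 to 5 counts. Epb42, which binds band 3 to the skeleton, had 1 to 8 counts per library and Kel 0 to 7. The list thus ran from above the level of Slc4a1 to near 0, and the genes named at either end were chosen after their values were seen. Icam4 had 0 counts in all 11 libraries, which allows up to 3 counts in each, and Cldn13 had 0 or 1.

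Of the 17 membrane and skeleton genes, 8 never exceeded 20 counts in any library, and 11 passed the filter. None of the 11 passed in ΔETreg, ΔLTreg or ΔTreg against control skin, with median log2 fold changes of 0.13, 0.50 and -0.04. Ank1, which encodes ankyrin and is also made in muscle, was called higher in ΔLTreg than in ΔETreg skin, with a log2 fold change of 0.98 (SE 0.261). In ΔTreg against ΔLTreg skin 4 of 11 fell: Add2 (-0.90, SE 0.176), an adducin, Ank1 (-1.22, SE 0.263), Tmod1 (-0.95, SE 0.232), a tropomodulin, and Xk (-0.71, SE 0.2001). In ΔTreg against ΔETreg skin 1 of 11 fell, Add2 (-0.60, SE 0.178).

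In ΔLTreg mice 1 to 3, Ank1 had 21.3, 10.9 and 23.4 CPM, Sptb, the erythroid beta spectrin that muscle also makes, 27.3, 15.7 and 28.8 CPM, and Tmod1 11.2, 8.43 and 15.7 CPM. The skeletal muscle actin Acta1 had 1812, 737.6 and 2344 CPM in the same mice, and 561.8 to 1210 CPM in the other 8 libraries. Mice 1 and 3 of this group were thus high in these genes and in muscle actin alike. The 8 skeletal muscle genes, a list added after the values were seen, summed to between 2128 and 7981 CPM in ΔLTreg skin, 1689 and 1813 in control, 1408 and 2326 in ΔETreg and 2104 and 4090 in ΔTreg skin, and their part in these differences was not tested.

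**Figure D5:**
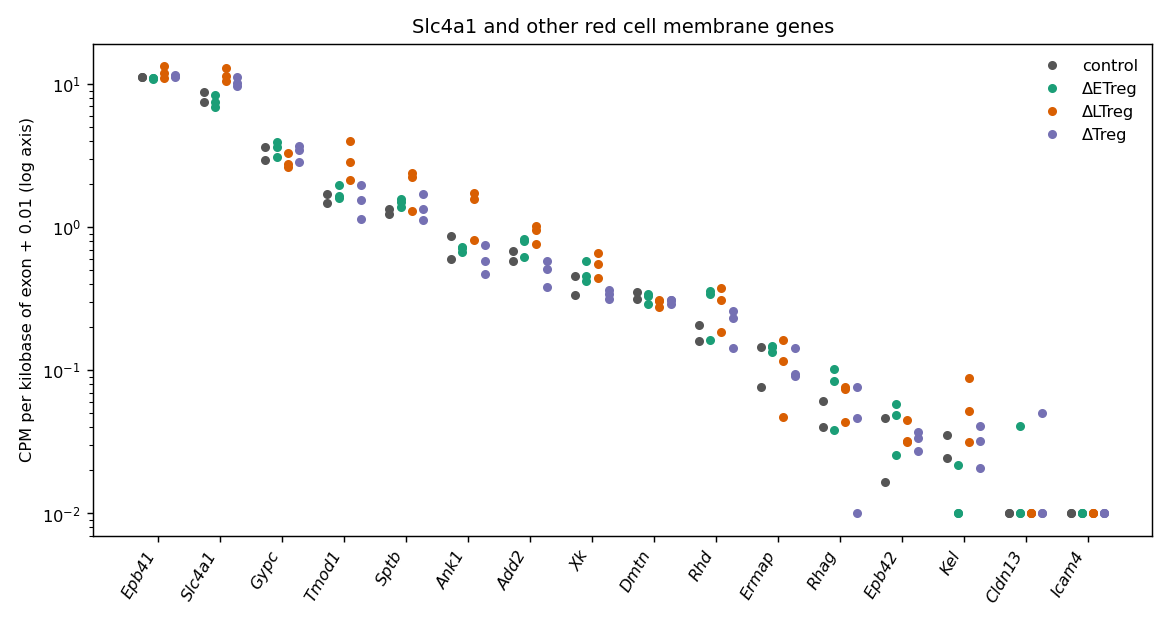
CPM per kilobase of exon plus 0.01, on a log axis, for Slc4a1 and 15 other red cell membrane and skeleton genes, ordered by median, with 1 point per library coloured by group. Slc4a1, at 6.95 to 12.997 CPM per kilobase, lies beside Epb41 (10.8 to 13.4) and above Gypc (2.62 to 3.94), while Rhag, Epb42 and Kel do not exceed 0.0916.

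The 15 heme synthesis and iron uptake genes were measured at 228 counts or more in every library. None of the 15 passed in ΔETreg against control skin, and 1 rose in ΔLTreg against control skin, the transferrin receptor Tfrc (log2 fold change 0.53, SE 0.134). In ΔTreg against control skin 3 rose and 2 fell. Cpox, the coproporphyrinogen oxidase, rose by 0.52 (SE 0.0533), Alas1, the housekeeping counterpart of Alas2, by 0.50 (SE 0.0815) and Tfrc by 0.52 (SE 0.134). Alad, the next enzyme of the pathway, fell by 0.49 (SE 0.0625) and Fech, which inserts the iron, fell by 0.26 (SE 0.0687) on the log2 scale. Slc25a37, the mitochondrial iron importer with the highest counts of the list, had a log2 fold change of 0.12 (SE 0.102) that did not pass.

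Alas1 and Alas2 encode the same enzymatic step in different cells, and only Alas1 was called in ΔTreg against control skin, where Alas2 had a log2 fold change of -0.37 (SE 0.178). In ΔLTreg against ΔETreg skin 3 of the 15 rose, Slc11a2 (0.22, SE 0.05003), Tfrc (0.47, SE 0.118) and Alas1 (0.28, SE 0.0720), and 0 fell. In ΔTreg against ΔETreg skin 4 rose and 2 fell, and in ΔTreg against ΔLTreg skin 1 rose, Cpox (0.58, SE 0.0471), and 3 fell, Alad, Urod and Fech.

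Of 13 genes for red cell cytoplasm and maturation found in the table, 10 passed the filter. Car1, the carbonic anhydrase of red cells, had 0 or 1 count in every library, Trim58 had 0 to 6 and Tspo2 0 to 5. Car2, a carbonic anhydrase that many tissues share, rose in ΔLTreg (log2 fold change 1.16, SE 0.1803) and in ΔTreg skin (0.86, SE 0.1803) against control. In ΔTreg against control skin 2 rose and 2 fell: Blvrb, the biliverdin reductase B, was the other that rose (0.39, SE 0.106), while the peroxide-clearing Cat (-0.50, SE 0.0766) and Prdx2 (-0.22, SE 0.0627) fell. No gene of this list passed in ΔETreg against control skin.

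The transcription factors of red cell formation were scarce. Gata1 had 1 to 16 counts, Klf1 15 to 36 and Gfi1b 0 to 10 per library, while Bcl11a and Zfpm1, which other tissues use too, had 1078 to 1729 and 925 to 1648. Of 8 tested, 0 passed in ΔETreg, 1 fell in ΔLTreg and 2 rose and 1 fell in ΔTreg against control skin. Nfe2 fell in ΔLTreg skin (-0.995, SE 0.240), and in ΔTreg skin Lmo2 (0.62, SE 0.129) and Zfpm1 (0.34, SE 0.0693) rose and the erythropoietin receptor Epor (-0.65, SE 0.207) fell.

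Other globins set the adult pattern apart. The embryonic chains Hbb-y, Hbb-bh1 and Hba-x had 0 counts in all 11 libraries, as had Hbb-bh0 and Hbb-bh3, which allows up to 3 counts in each. Of the globins outside red cells, cytoglobin (Cygb) had 457 to 816 counts and a log2 fold change of 0.03 (SE 0.159) in ΔTreg against control skin. Myoglobin (Mb), the oxygen store of muscle, rose in ΔLTreg (2.37, SE 0.479) and ΔTreg skin (1.81, SE 0.476) against control, and it had 35.0, 13.7 and 14.6 CPM in ΔLTreg mice 1 to 3 beside 3.40 and 4.82 CPM in control.

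Of 13 genes tested that clear hemoglobin and heme or recycle iron, 4 rose, 0 fell and 9 did not pass in ΔTreg against control skin, where 12.1% of all genes tested rose. The median log2 fold change of the 13 was 0.21, beside -0.01 over all genes tested. Those that rose were Cd163, the macrophage receptor for hemoglobin bound to haptoglobin, by 1.70 (SE 0.294), Lcn2, which binds iron-loaded siderophores and is made by neutrophils and epithelium, by 3.15 (SE 0.388), the ferritin heavy chain Fth1 by 0.59 (SE 0.0820) and the heme oxygenase Hmox1 by 0.54 (SE 0.172) on the log2 scale. Lrp1, a receptor for heme bound to hemopexin with many other ligands, fell in ΔLTreg skin (-0.52, SE 0.120), the 1 call in that comparison. Against ΔETreg and ΔLTreg skin, 5 of 13 rose in ΔTreg skin in each case and 0 fell. The iron exporter Slc40a1 had a log2 fold change of 0.30 (SE 0.150) in ΔTreg against control skin and did not pass.

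Markers of other blood cells are given beside the hemoglobin genes. No platelet gene of the 7 tested passed in any of the 6 comparisons. Platelet markers summed to 55.2 and 56.5 CPM in control, 49.5 to 60.2 in ΔETreg, 41.6 to 50.6 in ΔLTreg and 54.9 to 60.8 in ΔTreg skin, while the platelet-specific Ppbp, Gp9 and Treml1 had at most 8, 4 and 2 counts.

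Of 10 neutrophil genes tested, 9 rose in ΔTreg against control skin, S100a9 by 2.38 (SE 0.159) and Mmp9 by 1.41 (SE 0.182) on the log2 scale. Ngp had 43 to 51 counts in ΔTreg and 3 and 5 in control skin, and Ltf 23 to 49 against 2 and 0. The summed level of the list was 43.6 to 56.7 CPM in ΔTreg, 16.7 and 18.0 in control, 12.2 to 14.2 in ΔETreg and 21.6 to 23.2 in ΔLTreg skin, while the defining marker Ly6g had at most 2 counts. S100a9 also rose in ΔLTreg skin (0.65, SE 0.162). Of 4 B cell genes tested, Ighm rose in ΔTreg against control skin (1.34, SE 0.185), and the list summed to 15.1 to 18.5 CPM in ΔTreg, 6.69 and 7.09 in control, 5.14 to 7.07 in ΔETreg and 7.98 to 11.5 in ΔLTreg skin. Ms4a1 had at most 3 counts. The part of these cells in the hemoglobin differences was not tested.

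Vessel genes were measured beside hemoglobin because vessels hold the blood. The 12 endothelial markers summed to 377.3 and 395.6 CPM in control, 372.6 to 398.9 in ΔETreg, 427.5 to 432.3 in ΔLTreg and 433.9 to 472.2 in ΔTreg skin. Single markers moved in both directions in ΔTreg skin, and their part in the hemoglobin differences was not tested. In ΔTreg against control skin 4 of 12 rose and 2 fell: Pecam1 (0.69, SE 0.0470), the VEGF receptor Flt1 (1.44, SE 0.127), Eng (0.41, SE 0.0801) and Vwf (0.67, SE 0.191) rose, and Kdr (-0.67, SE 0.125) and the vascular cadherin Cdh5 (-0.36, SE 0.0701) fell. In ΔLTreg against control skin Pecam1 was the 1 call (0.23, SE 0.0466).

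Among the structural cells of skin, 2 of 8 epithelial markers rose and 2 fell in ΔTreg against control skin, with Krt14 (0.40, SE 0.103) and Dsg3 (0.32, SE 0.0519) higher and Krt1 (-1.93, SE 0.279) and Krt10 (-0.66, SE 0.198) lower. Of 7 dermal fibroblast markers 3 fell, Col1a2 (-1.07, SE 0.289), Col1a1 (-1.02, SE 0.294) and Lum (-0.94, SE 0.269). The fibroblast list summed to 9903 to 11229 CPM in ΔTreg and 18124 and 21580 in control skin, with 8396 to 18365 in ΔLTreg and 13663 to 24277 in ΔETreg skin. The median sum was highest in control and lowest in ΔTreg skin, as was the mean hemoglobin share. The range in ΔETreg skin spanned that of control skin, and the range in ΔLTreg skin spanned that of ΔTreg skin. The part of these markers in the hemoglobin differences was not tested.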

How the data were processed

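Whole skin of 11 Foxp3-DTR mice was sequenced in bulk, 1 library per mouse, as 150 bp paired reads from biopsies of both sexes. The authors trimmed reads with Trimmomatic 0.36, aligned them to GRCm38 with STAR 2.5.2b and assigned uniquely mapping exonic reads to genes with featureCounts (Subread 1.5.2). Whether strand was used, and the annotation release, are not given in the sources used here. The authors deposited raw counts for 49315 genes, without normalization, and tested them with DESeq2.

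The tools used here were edgeR 4.0.16, DESeq2 1.42.0 and limma 3.58.1, under R 4.3.3. Groups came from the treatment labels. Genes were filtered with filterByExpr, libraries were scaled by TMM, and 1 model with 4 group means was fitted to all 11 libraries (common dispersion 0.0120). All 6 contrasts between groups were tested by quasi-likelihood, adjusted by Benjamini-Hochberg over 18375 genes, at 0.05. SE is the log2 fold change over the square root of F. CPM uses TMM-scaled library sizes, and log2 CPM a prior count of 2. Correlations used 100000 permutations. The script was tested on simulated data. Depth was 23377571 to 34159435 counts per library, a gene at 3 counts or fewer was taken as not detected, and such floors cover counting error only. The p-values measure the spread between mice of a group, and the labels name no batch. The same 2 control libraries serve every comparison with control.

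Coordinates, exon lengths and shared windows come from GENCODE M21 (GRCm38) and promoters from RefSeq. The members and lists were chosen with earlier results of these data known. Named were all 6 members; of each list, up to 4 called genes per comparison and the 2 with the highest counts; and the 10 genes most like the members. Other genes, among them those at or near 0, Hba-x and Acta1, were named after their values were seen. The alternatives were DESeq2, the libraries of 2 groups alone, DESeq2 size factors, library size, totals without hemoglobin, no filter, at least 10 counts in every library, summed copies, each library left out and, added later, 2 libraries left out. Ahsp was not analysed here, and some genes of the lists are not reported here.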

Additional observations from a re-analysis of the deposited data

Results flagged for a closer look

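The effect of DT against control differed between regimens for Slc4a1 and Hba-a2, by the direct contrast of the regimens in edgeR's quasi-likelihood test. For Slc4a1 the log2 effect in ΔLTreg skin minus that in ΔETreg skin was 0.61 (SE 0.0971, adjusted p = 0.00581), with all 3 ΔLTreg mice above all 3 ΔETreg mice. Its effect in ΔTreg minus that in ΔETreg skin was 0.45 (SE 0.0973, adjusted p = 0.00655), again with no overlap. For Hba-a2 the effect in ΔTreg minus that in ΔETreg skin was -0.66 (SE 0.215, adjusted p = 0.0483), with all 3 ΔTreg mice below all 3 ΔETreg mice. This call on Hba-a2 was near the threshold and held in 11 of 20 other settings. It was lost with the copies of each pair summed (adjusted p = 0.0948 in edgeR). ΔETreg skin was taken at P9 and the other depleted groups at P13, so that age and regimen cannot be told apart in these differences.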

How the results depend on the processing

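Of the members' values in the 6 comparisons, 295 kept their direction and their side of the threshold under other settings, 23 passed only there, 4 lost their call and 2 changed sign. These other settings include the 1 without both low libraries, which were picked by the hemoglobin values themselves. Some of the 23 gained calls came from it, so this tally is not a clean check. With 1 library left out, 353 kept both, 28 lost a call, 4 gained one and 11 changed sign. The number of members called in ΔLTreg against control skin was 1, and it was 0 in edgeR but 1 in DESeq2 with the libraries of the 2 groups alone, 3 with no filter and 0 to 1 with 1 library left out. In ΔTreg against control skin it was 4, and 5 with DESeq2, 6 in edgeR on the 2 groups alone, 5 with no filter, 6 without both low libraries, 3 by library size alone, 3 with copies summed and 0 to 4 with 1 library left out, the 0 being without control mouse 1. With copies summed, both genes of a pair carry the result of 1 test. The 3 called there are Slc4a1 and the alpha pair, which is counted as 2 genes. In ΔTreg against ΔETreg skin it was 2, and 3 with DESeq2, 4 with no filter, 1 with copies summed, 4 without both low libraries and 1 to 4 with 1 library left out, the 4 being without ΔETreg mouse 3. In ΔTreg against ΔLTreg skin it was 0, and 1 with DESeq2, 4 with no filter, 5 without both low libraries and 0 to 1 with 1 library left out, the 1 being without ΔETreg mouse 3 or ΔLTreg mouse 3. The share of all genes called under each other setting is not given here, and the causes were not tested. The sign changes were all in values that were not called. Hbb-bt was at 0.0031 in ΔETreg against control skin without both low libraries, and at 0.11 in ΔLTreg against ΔETreg skin as the summed beta pair.

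With 1 library left out, Slc4a1 ran from -0.21 to 0.0097 in ΔETreg against control skin. In ΔLTreg against ΔETreg skin Hba-a1 ran from -0.35 to 0.040, Hba-a2 from -0.32 to 0.064, Hbb-bs from -0.033 to 0.31, Hbb-bt from -0.36 to 0.011 and Alas2 from -0.11 to 0.19, all on the log2 scale.

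No paired analysis was possible because each library came from a different mouse and the labels link no mice across groups. Values of the named list genes kept their call 1098 times and lost it 194 times with 1 library left out, and 962 and 66 times under other settings. With 2 or 3 mice in a group, a missed call in edgeR does not show that a gene did not differ.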
